A study of Mus musculus with 6 samples.

Results

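The genes of the DNA replication machinery were compared between bone marrow (BM) hematopoietic stem cells (HSCs) of control and IGF1-treated mice. They are 48 genes chosen by name, and all 48 were found among the 21878 gene rows of each library. They cover 11 roles, namely origin recognition, licensing, the MCM2-7 helicase, its activators, the CDC7 kinase, the polymerases and primase, the clamp and its loader, single-strand binding, flap cleavage and ligation, fork protection and nucleotide synthesis. The HSCs were sorted as CD34-Flk2-Lineage-Sca1+c-Kit+ cells from wild-type (WT) C57BL/6 mice. The IGF1 group had received recombinant mouse IGF1 under the skin (a single injection of 200 µg/kg) 1 day earlier. The other group was the control, and each gave 3 RNA-seq libraries. In the labels of both groups the text on extraction speaks of control or IR mice, whereas the treatment label names IGF1, which was used here. Age, sex and the number of mice behind a library are not given in the sources used here.

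Cells copy their genome once per division. Before S phase, the origin recognition complex (ORC), CDC6 and CDT1 load the ring-shaped MCM2-7 helicase onto origins, and geminin blocks CDT1 afterwards. In S phase, the CDC7-DBF4 kinase, MCM10, CDC45 and the GINS complex switch the helicase on, primase and DNA polymerase alpha start each strand, polymerases delta and epsilon extend it on the PCNA clamp, and ribonucleotide reductase and thymidylate synthase supply deoxynucleotides. Most adult HSCs rest outside the cycle, and many of these genes are transcribed under E2F factors as cells leave rest.

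The sequences just upstream of the genes are shown first, because E2F is the factor best known for this gene group and because members that lay far apart in their values can be read side by side. RefSeq (GRCm38.p6) gave a start site for 39 of the 48 genes, with 48 starts in all, and the 250 bases before each start were searched on both strands for 4 E2F words (TTTCCCGC, TTTCGCGC, TTTGCCGC and TTTGGCGC), which can overlap each other. Of the 48 upstream windows, 9 (18.8%), of 9 genes, held an E2F word, against 611 of 32851 windows of all genes (1.9%). The genes were Mcm5, Mcm6, Mcm7, Orc1, Orc3, Cdc6, Gins3, Pola1 and Rfc3. The CCAAT box (CCAAT) was in 50.0% of the windows of replication genes and 33.8% of all windows, the GC box (GGGCGG) in 64.6% and 32.7%, and the CHR (TTTGAA) in 12.5% and 16%. In the 6 windows printed here, capitals mark the E2F words. Mcm6 (chr1:128359706-128359955, minus strand) held 3, of which a pair overlapped, beginning 110 and 106 bases before the start, and the other began 47 bases before it. Gins3 (chr8:95633309-95633558, plus strand) held 1 that began 41 bases before the start, and Cdc6 (chr11:98907901-98908150, plus strand) 1 that began 138 bases before it. Rrm1 (chr7:102441445-102441694, plus strand), Rpa3 (chr6:8259142-8259391, minus strand) and Tyms (chr5:30073626-30073875, minus strand) held none and are shown because Rrm1 had the lowest log2 fold change of the 48 genes, and Rpa3 and Tyms lay above 0.
Mcm6: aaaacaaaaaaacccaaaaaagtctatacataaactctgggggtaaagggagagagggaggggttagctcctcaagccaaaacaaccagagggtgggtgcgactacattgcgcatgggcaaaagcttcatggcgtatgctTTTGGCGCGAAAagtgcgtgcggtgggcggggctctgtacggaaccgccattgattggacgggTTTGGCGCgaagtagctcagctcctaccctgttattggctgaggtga
Gins3: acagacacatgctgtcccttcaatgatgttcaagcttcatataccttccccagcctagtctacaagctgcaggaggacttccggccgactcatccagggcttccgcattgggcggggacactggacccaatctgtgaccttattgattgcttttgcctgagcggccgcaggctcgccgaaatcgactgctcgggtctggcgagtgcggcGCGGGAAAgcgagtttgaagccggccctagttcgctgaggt
Cdc6: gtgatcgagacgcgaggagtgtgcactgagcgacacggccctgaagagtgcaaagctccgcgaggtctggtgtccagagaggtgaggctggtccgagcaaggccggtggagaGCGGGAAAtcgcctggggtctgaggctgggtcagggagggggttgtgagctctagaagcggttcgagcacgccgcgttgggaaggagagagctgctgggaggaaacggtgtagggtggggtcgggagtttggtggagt
Rrm1: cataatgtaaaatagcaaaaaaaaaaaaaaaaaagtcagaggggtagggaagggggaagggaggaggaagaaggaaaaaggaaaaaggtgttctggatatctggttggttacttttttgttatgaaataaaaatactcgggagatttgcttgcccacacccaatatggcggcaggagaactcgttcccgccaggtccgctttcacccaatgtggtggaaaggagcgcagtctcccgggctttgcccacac
Rpa3: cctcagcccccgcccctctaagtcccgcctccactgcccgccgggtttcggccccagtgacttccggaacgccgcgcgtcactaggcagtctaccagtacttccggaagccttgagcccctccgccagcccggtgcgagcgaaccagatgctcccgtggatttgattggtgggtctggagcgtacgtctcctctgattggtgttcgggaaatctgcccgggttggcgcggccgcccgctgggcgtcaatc
Tyms: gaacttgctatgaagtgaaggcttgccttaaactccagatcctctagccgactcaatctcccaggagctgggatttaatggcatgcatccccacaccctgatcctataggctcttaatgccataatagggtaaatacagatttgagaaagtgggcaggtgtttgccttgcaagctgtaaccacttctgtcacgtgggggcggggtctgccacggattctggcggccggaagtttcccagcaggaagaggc

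The 3 control libraries were not alike. The values are FPKM, which divides the fragments of a gene by transcript length and library depth. Their steps gave back whole reads, on an approximate scale about 11206746 to 15973581 per library. Among genes with at least 200 reads in a pair of libraries, 0 differed by over 2-fold between control replicates 1 and 3, and 0 to 3 did between IGF1 libraries. Control replicate 2 differed this much from the other controls in 2965 and 2996 genes, but in only 125 to 157 when set against each IGF1 library. The FPKM sum was 466135 to 466619 in control replicates 1 and 3, 635111 in control replicate 2 and 677826 to 680285 in the IGF1 libraries. Transcripts of the gate's markers did not all match it, since Cd34 was at 634 to 640 FPKM in control replicates 1 and 3 and 230 to 265 elsewhere, and Flt3 (Flk2) was at 117 to 188 FPKM throughout. Kit was at 104 and 105 FPKM in control replicates 1 and 3, 31.4 in control replicate 2 and 24.2 to 24.6 in the IGF1 libraries. Summed over lists of markers, FPKM was 528 to 742 in the controls and 490 to 505 with IGF1 for 9 HSC genes, and 555 to 1033 and 505 to 516.5 for 3 genes that HSCs should hold at low levels (Cd34, Flt3 and Cd48). In the same order, it was 3212 to 5444 and 5501 to 5543 for 12 neutrophil and monocyte genes, and 111 to 422.5 and 390.5 to 406 for 8 B lineage genes. The 9 HSC genes did not move together. Their log2 fold changes with all 6 libraries were below 0 for 7, Kit among them, and above 0 for 2. The neutrophil and monocyte genes did not move together either. Elane, Prtn3 and Ctsg, of granule enzymes, were called higher without control replicate 2, whereas Ngp, Camp, S100a8 and S100a9, of later neutrophils, were called lower with all 6 libraries. S100a8 was at 284, 163 and 285 FPKM across control replicates 1 to 3 and 55 to 72.8 with IGF1, and Ly6g was at 0 in control replicate 2 and the IGF1 libraries. For 6 T and NK cell genes the sum was 359 to 779 and 769 to 789, nearly all of it Nkg7, with Cd3e at 0 to 0.206. For 8 erythroid genes it was 42 to 114 and 56.9 to 63.05, and for 6 megakaryocyte genes 57.9 to 76.6 and 93.6 to 104.5. The part of these differences in the results below was not tested. In bulk RNA, fewer cells of a type and less RNA per cell cannot be told apart. Control replicate 2 is labelled as a control and was kept as one. Whether it is mislabelled or mixed was not tested, and every mean, SD and call over 6 libraries includes it. Calls are therefore given with all 6 libraries and without control replicate 2.

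Replication transcripts were lower in HSCs of IGF1-treated mice for 7 of the 48 genes and higher for 0 at an adjusted p under 0.05 and a fold change over 2 (limma over 10449 genes, Benjamini-Hochberg). The 7 were Orc2, Orc3, Orc4, Orc5, Cdc6, Gins3 and Rrm2. They make up 14.6% of the 48, against 4.63% of all genes tested called lower and 1.98% called higher. The 0 higher calls stood beside 1 gene above 0 at an unadjusted p under 0.05 in limma and 2 in limma voom on the recovered reads, which also made 0 higher calls. At adjusted p alone, 17 genes were lower (background 14.1%) and 0 higher (background 6.26%). The median log2 fold change was -0.73 over the 48 genes and -0.18 over all genes tested, on the log2(FPKM + 1) scale, and it was below 0 for 43 genes and above 0 for 5. In 36 of the 48 genes, 75%, every IGF1 library lay below every control (background 37.4%), in Gins2 and Timeless every IGF1 library lay above (background 21.9%), and in the other 10 the groups overlapped. A 2-sided exact permutation test over the 6 libraries, which cannot go below p = 0.1 with 3 libraries in each group, gave 0.1 for these 38 genes.

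Without control replicate 2, 23 of the 48 genes were called lower (47.9%, background 20.6%) and 0 higher (background 12.3%), with 6 above 0 at an unadjusted p under 0.05, while 2 genes were called higher when the libraries were also scaled to their 75th percentile (Gins2 and Rpa3). The 23 genes held the former 7 and added Orc1, the 6 subunits of MCM2-7, Mcm10, Cdc7, Pola1, Pold1, Pold3, Pole, Fen1, Tipin and Rrm1. The median log2 fold change was then -0.89 over the 48 genes and -0.25 over all genes tested. At adjusted p alone, 41 genes (85.4%, background 53.6%) were lower and 5 (10.4%, background 34.9%) higher. Leaving out any 1 of the other 5 libraries gave 0 calls among all 10449 genes, with 22 to 25 of the 48 genes below 0 at an unadjusted p under 0.05. Each call made with all 6 libraries was thus lost on leaving out any single library other than control replicate 2. The adjusted p of the 7 called genes ran from 0.0286 to 0.0498.

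**Figure D1:**
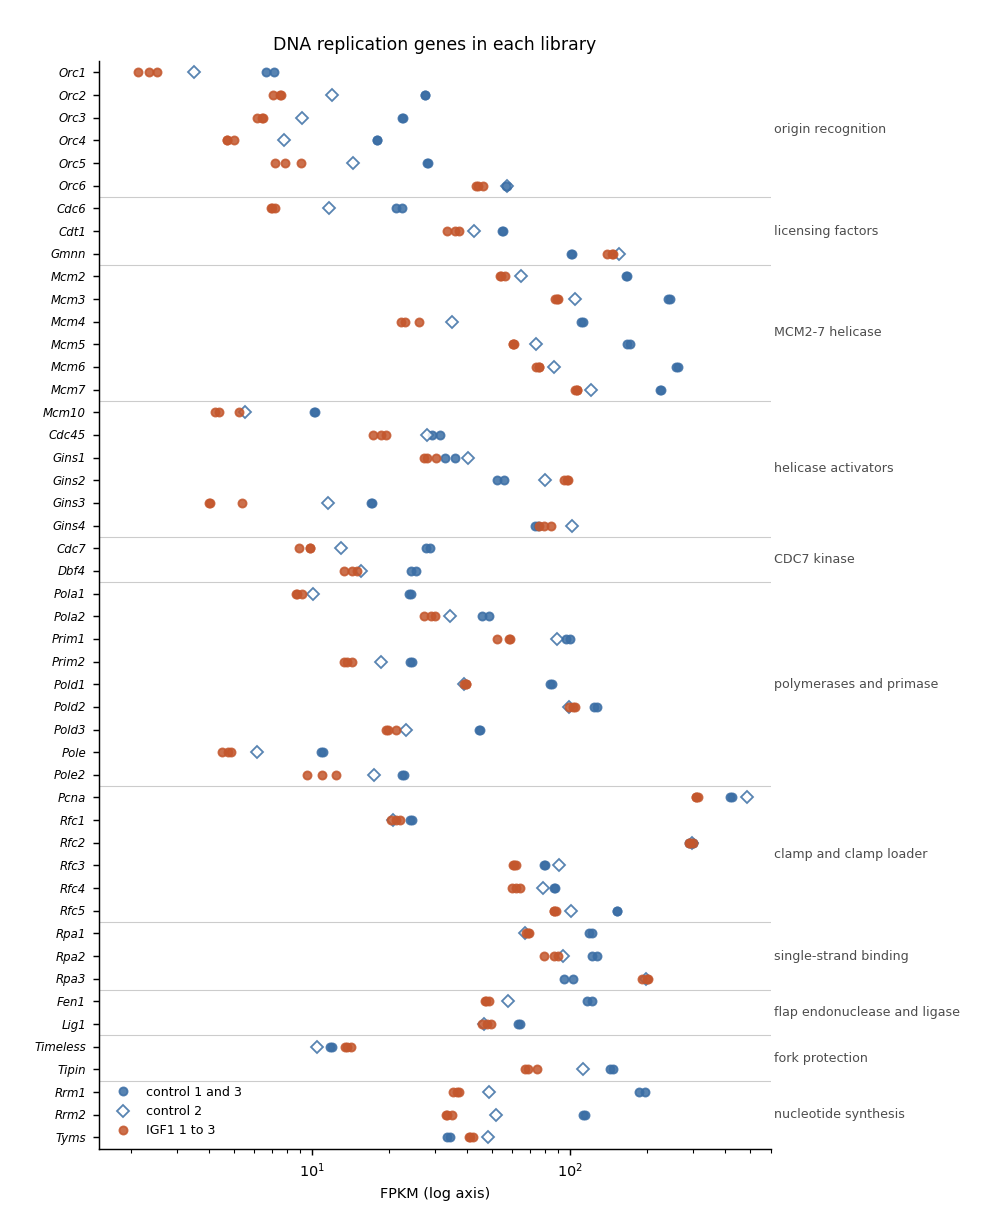
FPKM (log axis) of the 48 replication genes in each library, grouped by role; filled blue points are control replicates 1 and 3, open diamonds control replicate 2 and orange points the 3 IGF1 libraries. The IGF1 points lie left of every control point in 36 genes, right of them in Gins2 and Timeless, and control replicate 2 lies near the IGF1 points in most MCM genes but near the other controls in Orc6, Cdc45 and Prim1.

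The direction of single genes was read under 4 other scalings as well, because the deposited values put the median of all genes at -0.18. That median was -0.01 after quantile normalization, 0.06 after scaling to the 75th percentile, -0.52 with equal FPKM sums and -0.04 once trends on transcript length and on GC content were taken out. The median of the replication genes was -0.55, -0.46, -1.09 and -0.46 in the same order, so that, relative to all genes, it differed by -0.42 to -0.57 in each, and by -0.55 in the deposited values. Below 0 under all of these were 36 genes, above 0 under all Gins2 and Rpa3, and Gmnn, Gins4, Dbf4, Pold2, Rfc1, Rfc2, Rfc3, Lig1, Timeless and Tyms changed side. Of all calls, 30.0% were higher in the deposited values, 53.5% after quantile normalization, 65.1% after 75th percentile scaling, 14.0% with equal FPKM sums and 50.3% with length and GC trends removed. The replication genes called lower numbered 6, 5, 4 and 1 under these 4, with 0 called higher. Over all genes tested, calls lower numbered 271, 210, 196 and 151 in the same order. Gins3 was the only replication gene called under all. The calls were not all kept from the deposited values. Pcna was called after quantile normalization, and Cdc45, Prim1 and Tipin with equal FPKM sums, but none of these was called in the deposited values. With control replicate 2 left out, 8 genes were called lower under the deposited values and the 3 scalings rerun without it, namely Cdc6, Mcm2, Mcm3, Mcm4, Mcm6, Gins3, Rrm1 and Rrm2. Over all genes tested, calls lower there numbered 2157 in the deposited values, 3979 with equal FPKM sums, 1240 with 75th percentile scaling and 940 with trends removed. How many of all genes kept a call under all of these together was not counted.

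**Figure D2:**
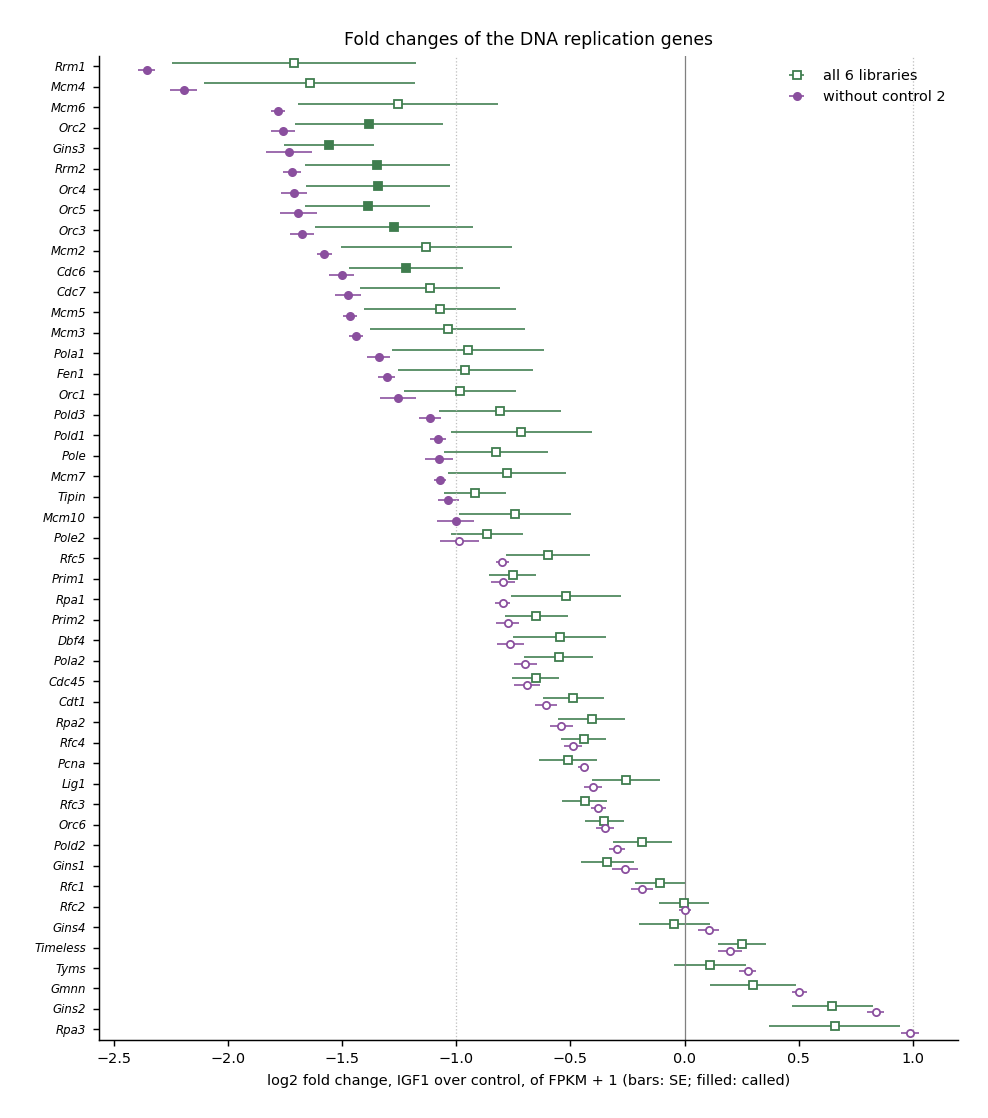
Log2 fold change (IGF1 over control, FPKM + 1) of the 48 replication genes with its standard error, from all 6 libraries (green squares) and without control replicate 2 (purple circles), sorted by the latter; filled symbols are called. With that library left out the errors are smaller and 23 genes are called, all below -1, while Gins2 and Rpa3 lie farthest above 0.

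ORC marks origins, and 4 of its 6 subunits were called lower (background 4.63%). Orc1 and Orc6 were also lower at an adjusted p under 0.05, but by under 2-fold. In all 6, every IGF1 library lay below every control (background 37.4%). Orc2 was at 27.6, 12 and 27.4 FPKM across control replicates 1 to 3, against 7.61, 7.09 and 7.58 FPKM across IGF1 replicates 1 to 3. Its control mean ± SD was 22.3 ± 8.97 FPKM and its IGF1 mean 7.43 ± 0.292 FPKM (n = 3 each), the SD of the controls coming from replicate 2, which lay between the groups. Its log2 fold change was -1.38 ± 0.32 (adjusted p = 0.043). Orc3 was at 22.5, 9.16 and 22.6 FPKM in the controls, against 6.17, 6.44 and 6.47 with IGF1. Orc4 was at 18, 7.85 and 18 FPKM in the controls, against 4.7, 4.72 and 5.01 with IGF1. Orc5 was at 28, 14.5 and 28.3 FPKM in the controls, against 7.9, 9.11 and 7.19 with IGF1. In each of these 4 genes every IGF1 library lay below every control, and control replicates 1 and 3 were 3.49 to 3.74 times the IGF1 mean. Log2 fold changes were -1.27 ± 0.34 (adjusted p = 0.0498) for Orc3, -1.34 ± 0.32 (adjusted p = 0.0434) for Orc4 and -1.39 ± 0.27 (adjusted p = 0.0369) for Orc5. For Orc2, Orc3, Orc4 and Orc5 they were -1.76, -1.68, -1.71 and -1.69 without control replicate 2, and -0.35 for Orc6. Orc1, the ATPase subunit that starts ring loading with CDC6, was the least abundant of the 48 genes, at 7.18, 3.52 and 6.69 FPKM in the controls, against 2.12, 2.35 and 2.51 with IGF1, with 114 to 498 reads per library. Its log2 fold change of -0.98 (adjusted p = 0.0459) did not pass the fold threshold, and without control replicate 2 it was -1.25 ± 0.077 (adjusted p = 1.23e-07) and passed it. Orc6, the smallest and most abundant subunit, was at 57, 57.2 and 56.6 FPKM in the controls, against 43.2, 44.1 and 46 with IGF1, a log2 fold change of -0.35 ± 0.09 (adjusted p = 0.0453), which passed the adjusted p at under 2-fold. The ratio of Orc6 to Orc2 was 2.06 and 2.07 in control replicates 3 and 1, 4.78 in control replicate 2 and 5.67 to 6.22 in the IGF1 libraries. With length and GC trends removed, the 6 subunits stayed below 0 with a median of -0.61, and none of them was called, and of the 48 genes Gins3 alone was.

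Among the licensing factors, Cdc6, the ATPase that joins ORC to load MCM2-7, was called lower, and geminin, the inhibitor, was not. Cdc6 was at 22.4, 11.7 and 21.3 FPKM across control replicates 1 to 3, against 7.02, 6.96 and 7.22 FPKM across IGF1 replicates 1 to 3, a log2 fold change of -1.22 ± 0.25 (adjusted p = 0.038). Cdt1, which brings the helicase to the origin, was at 54.5, 42.5 and 55 FPKM in the controls, against 33.4, 37.4 and 36.1 with IGF1, every IGF1 library again below every control, with a log2 fold change of -0.49 ± 0.13 (adjusted p = 0.0509). Gmnn (geminin) was the most abundant of the 3 at 101, 155 and 102 FPKM in the controls, against 140, 146 and 147 with IGF1. Its groups overlapped because control replicate 2 was the highest library, and its log2 fold change of 0.30 ± 0.19 (adjusted p = 0.222) became 0.50 ± 0.032 (adjusted p = 1.68e-07) without that library, under 2-fold, and -0.09 with equal FPKM sums. The log2 fold changes of Cdc6 and Cdt1 without control replicate 2 were -1.50 ± 0.054 (adjusted p = 2.38e-09) and -0.61 ± 0.049 (adjusted p = 1.06e-06). The ratio of Gmnn to Cdt1 was 1.85 and 1.86 in control replicates 3 and 1, 3.65 in control replicate 2 and 3.91 to 4.18 in the IGF1 libraries.

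The MCM2-7 helicase unwinds DNA as one ring with a single copy of each subunit. All 6 of its genes lay below every control in the IGF1 libraries (background 37.4%), by unequal amounts. Mcm4 was at 113, 35 and 111 FPKM across control replicates 1 to 3, against 26.1, 22.3 and 23.1 FPKM across IGF1 replicates 1 to 3. Mcm6, the most abundant in control replicates 1 and 3, was at 259, 87 and 262 FPKM in the controls, against 75.8, 73.7 and 76 with IGF1. Mcm7, the most abundant in the other 4 libraries, was at 224, 121 and 226 FPKM in the controls, against 105, 107 and 107 with IGF1. The IGF1 libraries were close together and control replicate 2 stood just above them, so control replicates 1 and 3 were 4.71 times the IGF1 mean for Mcm4, 3.46 times for Mcm6 and 2.11 times for Mcm7. Mcm2 was at 165, 64.7 and 166 FPKM in the controls, against 56, 53.7 and 54.4 with IGF1. Mcm3 was at 241, 105 and 244 FPKM in the controls, against 89, 87.7 and 90.3 with IGF1. Mcm5 was at 167, 73.9 and 171 FPKM in the controls, against 60.5, 60.1 and 60.7 with IGF1. With all 6 libraries none of the 6 was called by limma (background 4.63% lower) or by limma voom. All 6 passed an unadjusted p under 0.05 in limma, at log2 fold changes from -0.78 (adjusted p = 0.0644) for Mcm7 to -1.64 (adjusted p = 0.0523) for Mcm4. Without control replicate 2 all 6 were called lower (background 20.6%). They were at -2.19 ± 0.060 (adjusted p = 4.00e-10) for Mcm4, -1.78 for Mcm6, -1.58 for Mcm2, -1.47 for Mcm5, -1.44 for Mcm3 and -1.07 ± 0.028 (adjusted p = 2.75e-10) for Mcm7. Summed over the 6 genes, FPKM was 1169 and 1180 in control replicates 1 and 3, 487 in control replicate 2 and 404 to 413 in the IGF1 libraries. The most abundant of the 6 was 2.28 and 2.35 times the least abundant, Mcm4, in control replicates 1 and 3, 3.47 times in control replicate 2 and 4.04 to 4.79 times in the IGF1 libraries, so the 6 transcripts were less even where they were lower. Mcm2, Mcm3, Mcm4 and Mcm6 kept their calls without control replicate 2 under each scaling rerun there, Mcm5 lost its call with length and GC trends removed, and Mcm7 lost it there and with 75th percentile scaling.

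Among the 6 helicase activators, 5 lay below 0, of which Gins3 was called lower (background 4.63%), and Gins2 lay above 0. Gins3 (PSF3) and Gins2 (PSF2) encode subunits of the same 4-part GINS complex, which holds CDC45 to the helicase. Gins3 was at 17, 11.6 and 17.2 FPKM across control replicates 1 to 3, against 4.01, 4.03 and 5.37 FPKM across IGF1 replicates 1 to 3, with 110 to 667 reads per library, and its log2 fold change of -1.56 ± 0.20 (adjusted p = 0.0285) was -1.73 ± 0.101 (adjusted p = 8.39e-08) without control replicate 2. Gins2 was at 55.6, 80.4 and 52.4 FPKM in the controls, against 97.6, 98.4 and 95.3 with IGF1, every IGF1 library above every control. Its log2 fold change of 0.65 ± 0.18 (adjusted p = 0.0509) was 0.84 ± 0.037 (adjusted p = 1.16e-08) without control replicate 2, under 2-fold, and it passed 2-fold there after 75th percentile scaling (1.18) and with length and GC trends removed (1.16). The ratio of Gins2 to Gins3 was 3.05 and 3.28 in control replicates 3 and 1, 6.95 in control replicate 2 and 17.7 to 24.4 in the IGF1 libraries, the widest shift among the 11 ratios of 2 subunits or partners that were computed. Gins1 (PSF1) was at 36, 40.5 and 32.8 FPKM in the controls, against 28.1, 27.3 and 30.3 with IGF1. Gins4 (SLD5) was at 75.1, 102 and 73.4 FPKM in the controls, against 75.8, 84.6 and 79.6 with IGF1, highest in control replicate 2. Neither was called, and their log2 fold changes were -0.34 and -0.05, or -0.26 and 0.10 without control replicate 2. Cdc45 was at 29.2, 28.1 and 31.4 FPKM across control replicates 1 to 3, against 19.4, 17.3 and 18.6 FPKM across IGF1 replicates 1 to 3. The 3 controls of Cdc45 lay close together, and its log2 fold change of -0.65 ± 0.10 (adjusted p = 0.029) passed the adjusted p but not 2-fold, at -0.69 without control replicate 2. With all libraries scaled to equal FPKM sums, Cdc45 was called lower, at -1.03. Mcm10, which helps the helicase start to unwind, was at 10.2, 5.52 and 10.3 FPKM in the controls, against 4.38, 4.22 and 5.23 with IGF1, with a log2 fold change of -0.74 ± 0.24 (adjusted p = 0.0636) in all libraries and -1.003 ± 0.082 (adjusted p = 1.19e-06) without control replicate 2, where it was called just past 2-fold.

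The CDC7 kinase phosphorylates MCM subunits, and DBF4 is its activating partner. Cdc7 was at 27.8, 13 and 28.7 FPKM in the controls, against 9.83, 9.89 and 8.93 with IGF1, and its log2 fold change of -1.12 ± 0.31 (adjusted p = 0.0509) was -1.47 ± 0.057 (adjusted p = 4.29e-09) without control replicate 2, where it was called. Dbf4 was at 24.3, 15.5 and 25.5 FPKM in the controls, against 13.4, 15 and 14.4 with IGF1, not called in either, with a log2 fold change of -0.55 ± 0.20 (adjusted p = 0.0772) and -0.76. With length and GC trends removed Dbf4 lay at 0.08, above 0.

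**Figure D3:**
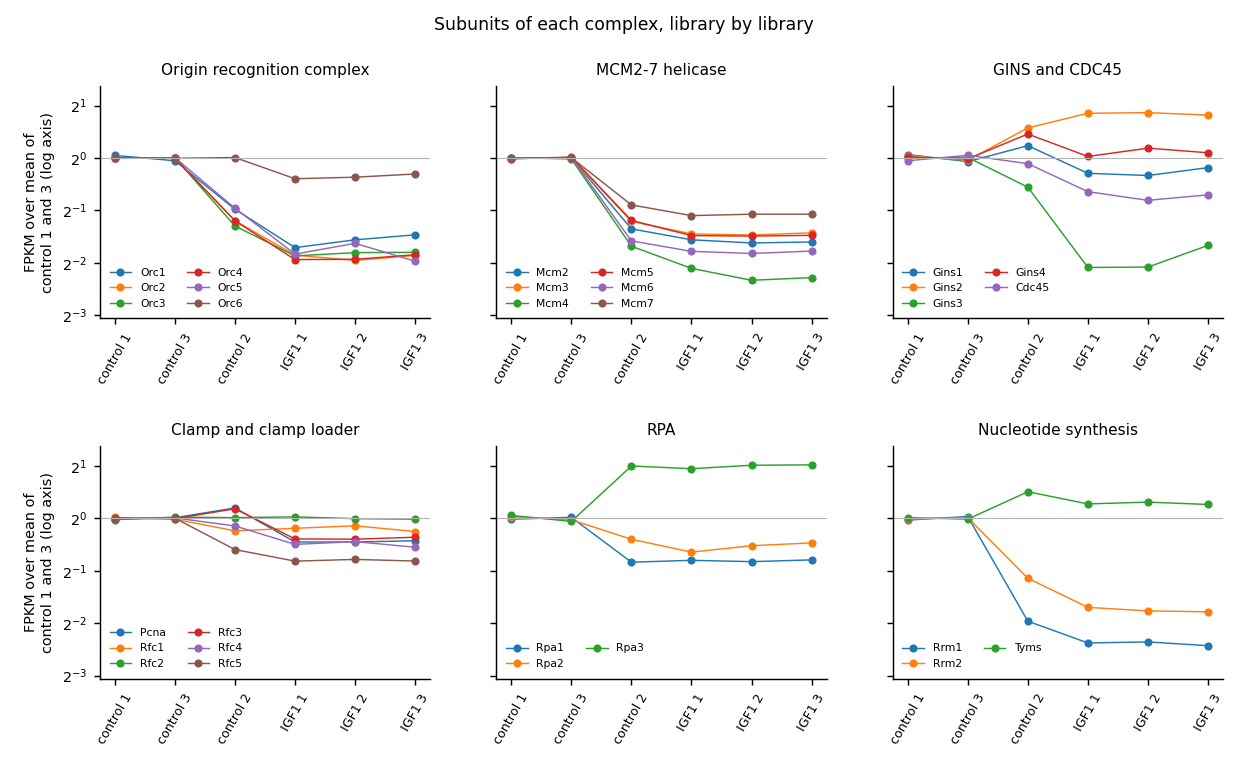
FPKM of each subunit divided by the mean of control replicates 1 and 3 (log axis) in 6 groups of genes, with the libraries in the order control 1, control 3, control 2 and IGF1 1 to 3; lines join the values of a gene and carry no order of time. The 6 MCM genes all lie below 1 with IGF1, at unequal levels, Orc6 lies above Orc1 to Orc5, Gins2 lies above 1 and Gins3 below it, and Rpa3 and Tyms lie above 1 where their partners lie below it.

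Of the 9 genes of the polymerases and primase, 0 were called with all 6 libraries by limma or limma voom, against the background of 4.63%, and 7 passed an unadjusted p under 0.05. Also 7, or 77.8%, had every IGF1 library below every control (background 37.4%). Pola1, the catalytic subunit of polymerase alpha, was at 23.9, 10.1 and 24.2 FPKM in the controls, against 8.77, 9.22 and 8.69 with IGF1 and had the lowest log2 fold change of the 9, -0.95 ± 0.33 (adjusted p = 0.0711). Prim1, the catalytic subunit of primase, was at 99.9, 89.6 and 97 FPKM across control replicates 1 to 3, against 52.1, 58.5 and 58.4 FPKM across IGF1 replicates 1 to 3. The 3 controls of Prim1 lay together, and its log2 fold change of -0.75 ± 0.10 (adjusted p = 0.0287) passed the adjusted p but not 2-fold. The same held for Prim2, at -0.65 ± 0.14 (adjusted p = 0.0395), and Pole2, at -0.86 ± 0.16 (adjusted p = 0.0355). With all libraries scaled to equal FPKM sums, Prim1 was called lower, at -1.14. Without control replicate 2, the catalytic subunits Pola1 (-1.34), Pold1 (-1.08) and Pole (-1.08) and the polymerase delta subunit Pold3 (-1.11) were called, and Pola2 (-0.70), Prim1 (-0.80), Prim2 (-0.77), Pole2 (-0.99) and Pold2 (-0.30) were not. Pold1 was at 84, 39 and 85 FPKM in the controls, against 39, 39.7 and 39.8 with IGF1, control replicate 2 being level with the IGF1 libraries, so that its groups overlapped. Pole was at 10.9, 6.16 and 11.1 FPKM in the controls, against 4.74, 4.5 and 4.86 with IGF1. Pold3 was at 44.9, 23.2 and 44.7 FPKM in the controls, against 19.5, 19.8 and 21.2 with IGF1. Pold2, the most abundant of the 9, was at 124, 99.7 and 128 FPKM in the controls, against 99.1, 105 and 103 with IGF1, with a log2 fold change of -0.18 ± 0.13 (adjusted p = 0.259). The ratio of Pold2 to Pold1 was 1.48 and 1.5 in control replicates 1 and 3 and 2.54 to 2.64 in the other 4 libraries.

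PCNA is the sliding clamp, and the RFC complex, of 5 genes here, loads it. Of these 6 genes, 0 were called with all libraries (background 4.63% lower and 1.98% higher). Without control replicate 2, 0 were called as well (background 20.6% and 12.3%). With all libraries 4 were below 0 at an unadjusted p under 0.05 in limma, 3 of them at an adjusted p, and 0 were called by limma voom. Pcna was the most abundant of the 48 genes, at 419, 485 and 426 FPKM across control replicates 1 to 3, against 309, 309 and 314 FPKM across IGF1 replicates 1 to 3. Control replicate 2 was the highest library and the IGF1 libraries lay below all 3 controls. The log2 fold change of -0.51 ± 0.13 (adjusted p = 0.0459) was -0.44 ± 0.025 (adjusted p = 5.70e-08) without control replicate 2. Under the 4 other scalings of all libraries it ran from -1.035 after quantile normalization, where Pcna was called lower, to -0.235 with 75th percentile scaling. How reads shared with the 2 annotated pseudogenes Pcna-ps1 and Pcna-ps2 were assigned is not given in the sources used here. Rfc3, at -0.44 ± 0.10 (adjusted p = 0.0417), and Rfc4, at -0.44 ± 0.10 (adjusted p = 0.041), also passed the adjusted p alone. Rfc3 lay at 0.19 with length and GC trends removed. Rfc2 was at 289, 297 and 299 FPKM in the controls, against 300, 293 and 291 with IGF1 and had the log2 fold change nearest 0 of the 48 genes, -0.004 ± 0.11 (adjusted p = 0.977). Rfc5 was at 152, 101 and 153 FPKM in the controls, against 86.7, 88.7 and 86.8 with IGF1, the lowest of the 6 at -0.60 ± 0.18 (adjusted p = 0.0579). Rfc1, the large subunit, had a log2 fold change of -0.11 ± 0.11 (adjusted p = 0.427). The values for Rfc1 to Rfc5 without control replicate 2 were -0.18, 0.001, -0.38, -0.49 and -0.80.

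The 3 subunits of RPA, the single-strand binding complex that holds 1 of each, lay on both sides of 0. Rpa1 was at 119, 67.4 and 122 FPKM across control replicates 1 to 3, against 69.1, 67.9 and 69.5 FPKM across IGF1 replicates 1 to 3. Rpa3 was at 103, 198 and 95.1 FPKM in the controls, against 191, 200 and 201 with IGF1. In both genes control replicate 2 was level with the IGF1 libraries. Neither was called with all libraries, at -0.52 ± 0.24 (adjusted p = 0.122) and 0.66 ± 0.29 (adjusted p = 0.109). In the 5 remaining libraries, with control replicate 2 out, they were at -0.80 ± 0.032 (adjusted p = 5.33e-09) and 0.99 ± 0.040 (adjusted p = 5.71e-09), both under 2-fold. Rpa2 was at 127, 94.3 and 122 FPKM in the controls, against 79.6, 86.6 and 89.9 with IGF1, with a log2 fold change of -0.41 ± 0.15 (adjusted p = 0.0728), or -0.54 without control replicate 2. The ratio of Rpa3 to Rpa1 was 0.867 and 0.78 in control replicates 1 and 3 and 2.76 to 2.94 in the other 4 libraries. Rpa3 had the shortest transcript of the 48 genes, at 682 bases.

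Fen1, the nuclease that trims the flaps of Okazaki fragments, was at 117, 57.6 and 122 FPKM in the controls, against 46.9, 47.2 and 48.8 with IGF1. Its log2 fold change was -0.96 ± 0.29 (adjusted p = 0.0579) with all libraries and -1.30 ± 0.037 (adjusted p = 4.57e-10) without control replicate 2, where it was called. Lig1, the ligase that seals the fragments, was at 62.8, 46.6 and 64.1 FPKM in the controls, against 47.8, 45.9 and 49.7 with IGF1, with a log2 fold change of -0.26 ± 0.15 (adjusted p = 0.188) and overlapping groups, and at -0.40 ± 0.041 (adjusted p = 6.99e-06) without control replicate 2.

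TIPIN and TIMELESS together form the fork protection complex. Tipin was at 147, 113 and 143 FPKM across control replicates 1 to 3, against 67.2, 74.7 and 68.7 FPKM across IGF1 replicates 1 to 3. Its log2 fold change of -0.92 ± 0.14 (adjusted p = 0.0287) passed the adjusted p and fell short of 2-fold, and without control replicate 2 it was -1.04 ± 0.046 (adjusted p = 1.04e-08) and called. With all libraries scaled to equal FPKM sums, Tipin was called lower, at -1.31. Timeless was at 12, 10.5 and 11.8 FPKM in the controls, against 13.7, 13.5 and 14.2 with IGF1, every IGF1 library above every control, with a log2 fold change of 0.25 ± 0.10 (adjusted p = 0.0995). It lay at 0.20 ± 0.051 (adjusted p = 0.00431) without control replicate 2, and at -0.12 with equal FPKM sums. The ratio of Timeless to Tipin was 0.0819 to 0.0931 in the controls and 0.18 to 0.206 in the IGF1 libraries, and here control replicate 2 stood with the other controls.

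Rrm1 and Rrm2 encode the large and the small subunit of ribonucleotide reductase, which makes deoxynucleotides. Rrm2 was called lower with all libraries, and both were without control replicate 2. Rrm1 was at 186, 48.8 and 195 FPKM across control replicates 1 to 3, against 36.6, 37.1 and 35.3 FPKM across IGF1 replicates 1 to 3. Rrm2 was at 113, 51.6 and 115 FPKM across control replicates 1 to 3, against 35.1, 33.5 and 33.1 FPKM across IGF1 replicates 1 to 3. In both, every IGF1 library lay below every control and control replicate 2 lay nearer the IGF1 libraries. Control replicates 1 and 3 were 5.23 times the IGF1 mean for Rrm1, the widest gap of the 48 genes, and 3.36 times for Rrm2. Rrm2 was called at -1.34 ± 0.32 (adjusted p = 0.0435), whereas Rrm1, at -1.71 ± 0.54 (adjusted p = 0.0593), was not. The SD among the controls was 81.8 FPKM for Rrm1 and 36 FPKM for Rrm2. Without control replicate 2 they were at -2.36 ± 0.038 (adjusted p = 1.30e-11) and -1.72 ± 0.038 (adjusted p = 9.81e-11). Tyms, thymidylate synthase, was at 34.3, 48.3 and 33.6 FPKM in the controls, against 41.1, 42.1 and 40.8 with IGF1, with overlapping groups. The log2 fold change of Tyms was 0.11 ± 0.16 (adjusted p = 0.568), and 0.28 ± 0.038 (adjusted p = 6.53e-05) without control replicate 2. The ratio of Tyms to Rrm1 was 0.185 and 0.173 in control replicates 1 and 3, 0.988 in control replicate 2 and 1.12 to 1.15 in the IGF1 libraries, and Tyms lay at -0.27 with equal FPKM sums.

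Control replicate 2 was not midway between the groups for every gene. On the log2(FPKM + 1) scale it lay nearer control replicates 1 and 3 than the IGF1 mean in 12 of the 48 genes, 25%, and in 22.7% of all genes tested. These 12 were Orc6, Cdc45, Gins1, Gins3, Prim1, Prim2, Pole2, Pcna, Rfc3, Rfc4, Timeless and Tipin. Of the 7 genes called with all libraries, 1, Gins3, was among them, and in the other 6 control replicate 2 was nearer the IGF1 mean. Of the 12, 10 were called in neither comparison.

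Log2 fold changes were related to transcript length and to GC content, over all genes and among the replication genes. Over the 10101 genes tested that matched a reference transcript, Spearman's rho between the length of the longest transcript and the log2 fold change was -0.21, and over the 48 genes it was -0.30 (-0.23 and -0.36 without control replicate 2). Between GC content and the log2 fold change, rho was 0.39 over the same genes tested and 0.28 over the 48 genes. Genes share their libraries, so these are descriptions. The 16 shortest of the 48, from 682 to 2509 bases, had a median of -0.48 with 1 called lower (3 without control replicate 2). The middle 16, from 2519 to 3589 bases, had a median of -0.90 with 3 called (11), and the 16 longest, from 3679 to 7163 bases, a median of -0.78 with 3 called (9). The background of lower calls was 4.63% (20.6% without control replicate 2). Among the 16 longest, Gins2 (3900 bases), Timeless (4573 bases) and Tyms (3884 bases) lay above 0.

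**Figure D4:**
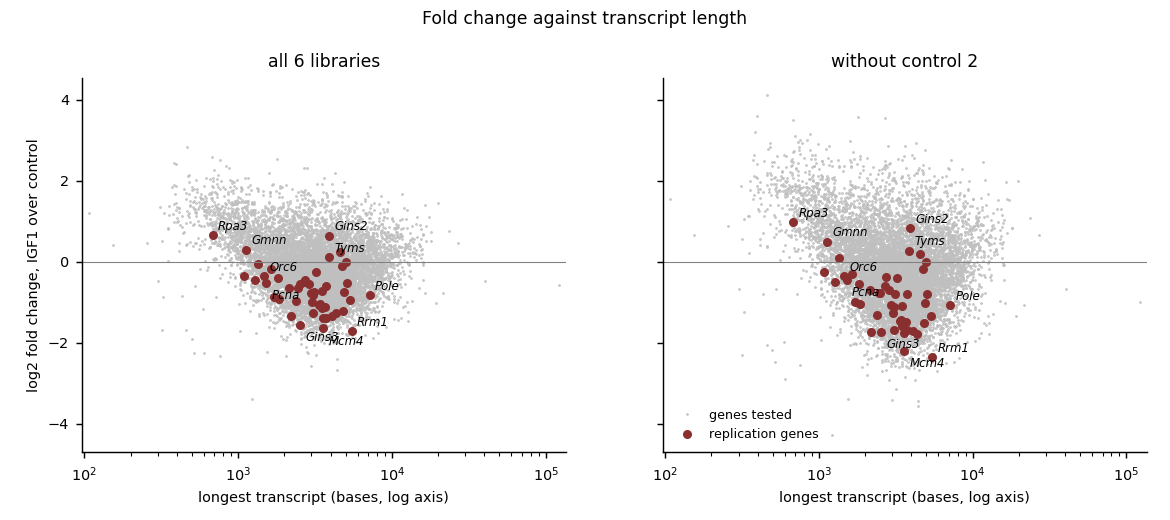
Log2 fold change (IGF1 over control) against the length of the longest transcript (log axis) for all genes tested with a length (grey) and the 48 replication genes (red), with all 6 libraries on the left and without control replicate 2 on the right. The shortest of all genes lie mostly above 0. The replication genes lie mostly below 0 at each length. With all 6 libraries, 2 of their 16 shortest lie above 0, Rpa3 at 682 bases among them.

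The genes with an E2F word upstream can be set beside the others. All 9 lay below 0, from -0.44 (Rfc3) to -1.56 (Gins3), with a median of -1.07, where 59.6% of all genes lay below 0. Of the 9, 3 were called lower (33.3%, background 4.63%), and 8 without control replicate 2 (88.9%, background 20.6%), at a median of -1.47. Of the 30 genes with a start site and no E2F word, 27 (90%) lay below 0, with a median of -0.63. Of these 30, 4 were called lower (13.3%), and 12 without control replicate 2 (40%), at a median of -0.80. Both groups lay below the median of all genes, and no test of the difference was made. Among the windows shown above, Mcm6, with 3 E2F words, and Rrm1, with none, were both called without control replicate 2.

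Of 33 further replication factors, 1 was called lower (3.03%, background 4.63%) and 1 higher (background 1.98%), with a median of -0.41. With control replicate 2 left out, 10 were lower (30.3%, background 20.6%) and 2 higher (6.06%, background 12.3%). Dna2, a nuclease and helicase that trims long flaps, was at 14.4, 8.83 and 15.2 FPKM in the controls, against 5.49, 6.28 and 5.15 with IGF1 and was called lower at -1.02 ± 0.22 (adjusted p = 0.0399), or -1.25 without control replicate 2. Rnaseh2c, a subunit of the RNase H2 that removes ribonucleotides from DNA, was at 79.1, 201 and 79.3 FPKM in the controls, against 349, 336 and 356 with IGF1 and was called higher at 1.67 ± 0.38 (adjusted p = 0.0417), or 2.12 without control replicate 2. Pold4, the small subunit of polymerase delta, was at 26.1, 89.3 and 27.1 FPKM in the controls, against 109, 111 and 108 with IGF1. Pold4 was called higher only without control replicate 2 (a log2 fold change of 2, adjusted p = 2.16e-11). Dtl, which recruits CDT1 for destruction, and its partner Ddb1 were called lower there, at -1.95 and -1.64.

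Of 11 other enzymes of deoxynucleotide supply, 1 was called lower (9.09%, background 4.63%) and 0 higher (background 1.98%), with 2 above 0 at an unadjusted p under 0.05 and 0 called higher by limma voom. Their median was 0.12, which turned to -0.18 after quantile normalization and -0.28 with equal FPKM sums. There were 3 called lower (27.3%, background 20.6%) and 1 higher (9.09%, background 12.3%) without control replicate 2. Dctd, dCMP deaminase, was at 33.7, 19.3 and 34 FPKM in the controls, against 12.6, 12.4 and 13.2 with IGF1 and was called at -1.09 ± 0.23 (adjusted p = 0.0392), or -1.34 without control replicate 2. Shmt1, which feeds one-carbon units to thymidylate synthesis, was at 79.9, 23.5 and 80.1 FPKM in the controls, against 17.4, 17.1 and 16.7 with IGF1. Shmt1 and the deoxycytidine kinase Dck were called lower without control replicate 2 (-2.17 and -1.67), and the nucleoside diphosphate kinase Nme2 higher (1.51).

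Of 17 genes of the E2F and RB family, which switch many replication genes on and off, 1 was called lower (5.88%, background 4.63%) and 0 higher (background 1.98%), with 1 above 0 at an unadjusted p under 0.05 and 0 called higher by limma voom. Their median was -0.58, and without control replicate 2, 6 were lower (35.3%, background 20.6%) and 0 higher (background 12.3%), with 2 above 0 at an unadjusted p under 0.05. Lin52, a subunit of the MuvB core, was at 12.2, 3.97 and 12.6 FPKM in the controls, against 2.12, 2.4 and 2.55 with IGF1 and was called at -1.52 ± 0.41 (adjusted p = 0.0487), or -2.002 without control replicate 2, though limma voom did not call it. Tfdp1, the dimer partner of E2F, was at 140, 40.1 and 135 FPKM in the controls, against 34.4, 32.2 and 33.4 with IGF1. Tfdp1 (-2.02), the pocket protein gene Rbl2 (-1.91) and the repressor E2f6 (-1.65) were called lower without control replicate 2. Under the 4 other scalings the median ran from -0.75 to -0.07 for the further replication factors, from -0.28 to 0.39 for the enzymes of deoxynucleotide supply, from -0.87 to -0.33 for the E2F and RB family and from -1.09 to -0.46 for the 48 genes.

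**Figure D5:**
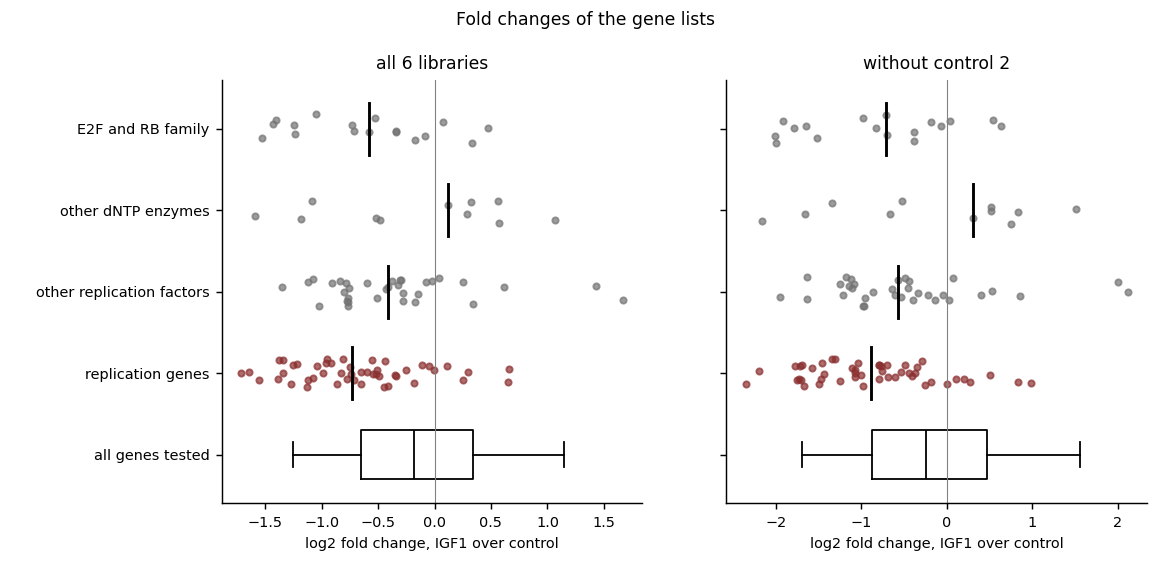
Log2 fold change (IGF1 over control) of all genes tested (box of the quartiles and median, whiskers at the 5th and 95th percentiles) and of the genes of 4 lists (points, with the median as a bar), with all 6 libraries on the left and without control replicate 2 on the right. The replication genes have the lowest median of the 4 lists, -0.73 and -0.89, and the other enzymes of deoxynucleotide supply lie on both sides of 0.

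The fewest reads on a gene of the 48 in any library were 110, on Gins3, and the most 18715, on Mcm6, while 6 genes had under 300 reads in some library. Exons of 14 of the 48 genes overlap an annotated exon on the opposite strand. In 4 genes, Orc5, Mcm7, Pole2 and Rpa1, they overlap one on the same strand, where strand would not separate the reads. The libraries were made with a stranded kit, but whether strand was used in counting is not given in the sources used here, so reads of Orc2 and Nif3l1, or of Rfc4 and Eif4a2, may not be told apart.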

How the data were processed

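RNA-seq was analysed for 3 control and 3 IGF1 libraries of BM HSCs, grouped by the treatment label. The authors trimmed reads with fastp. Their methods name RSEM for quantification, whereas the submitters' processing notes name HISAT2, StringTie and GRCm38 (mm10), so which of these made the files is not settled. The annotation and the unit are not given in the sources used here. The authors deposited 1 value per gene and library, which was taken as FPKM because the values of a gene move in whole steps. These steps gave whole reads (within 0.005) for 14838 of 14838 genes above 0 in at least 2 libraries, against 0.55% of 4000 jittered rows. Ratios of depth are exact and the scale is approximate.

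A gene was tested where 3 or more libraries reached 1 FPKM (10449 genes, all 48 members among them). The test was limma 3.58.1 under R 4.3.3, with lmFit and a trended eBayes, applied to log2(FPKM + 1). Genes were called at a Benjamini-Hochberg adjusted p under 0.05 over all genes and a fold change over 2. Fold changes on this scale understate those of low genes. Errors are standard errors unless named SD. On simulated data with the same noise in every library, the fit recovered known changes. No simulated library stood apart as control replicate 2 does, so this does not show how the fit performs here. Nothing says that the libraries came from separate mice, so p-values measure only the spread between these libraries, which may be technical. Chi-squared per gene was 1.52 for control replicates 1 and 3 and 1.69 to 1.89 for pairs of IGF1 libraries, near but above sampling noise, so none were merged.

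The members and lists were chosen with earlier results of these data known. The value of 1 marker gene is not reported here. Named were members called with or without control replicate 2, for each role the most abundant member and those with the highest and lowest log2 fold change, up to 5 called genes of each other list, and Mki67. Further members and the marker genes were named after their values were seen. Transcript length and GC content came from GENCODE M21 for 96.7% of the genes tested. Alternatives were other scalings, filters and pseudocounts (0.1 and 5), no trend, a replicate block, library weights, limma voom on recovered reads, removal of length and GC trends, adjusted p alone and leaving out each library. Scaling to equal FPKM sums, and scalings without control replicate 2, were added after the data were seen. Same-numbered libraries did not deviate together (correlations of -0.06, -0.05 and 0.01).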

Additional observations from a re-analysis of the deposited data

How the results depend on the processing

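The replication genes called lower, 7 in the main comparison, numbered 3 with no filter on low values, 4 with a pseudocount of 5, 1 with length and GC trends removed, 4 with equal FPKM sums, 17 at adjusted p alone and 23 with library weights, and 0 to 23 when each library was left out (23 without control replicate 2 and 0 without any other). Added after the data were seen, without control replicate 2, they numbered 34 with equal FPKM sums, 15 with 75th percentile scaling and 11 with length and GC trends removed, and those called higher 2 with 75th percentile scaling and 1 with length and GC trends removed, against 0. All genes called lower, 484, numbered 271 after quantile normalization, 210 after 75th percentile scaling, 265 with no filter, 157 with a pseudocount of 5, 2159 with library weights, 151 with length and GC trends removed, 196 with equal FPKM sums, 1476 at adjusted p alone, 0 to 2157 when a library was left out, and 3979, 1240 and 940 under the 3 added fits without control replicate 2. All genes called higher, 207, numbered 312, 392, 109, 66 and 1276 under the first 5 of these, 32 with equal FPKM sums, 382 with limma voom, 654 at adjusted p alone, 0 to 1281 when a library was left out, and 647, 1879 and 1153 under the added fits. The median of the replication genes, -0.73, was -0.46 with 75th percentile scaling, -0.46 with length and GC trends removed and -1.09 with equal FPKM sums, or -1.41 with equal sums and no control replicate 2. The replicate block gave 0 calls in either direction among the replication genes and among all genes, with 33 replication genes below 0 at an unadjusted p under 0.05. The libraries share no more than a number, so a call lost under this block is no weaker effect. With the other alternatives the replication genes called lower numbered 5 to 8, and the median lay between -0.90 and -0.55. Causes were not tested.

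The log2 fold change took the other sign for Gmnn (-0.017), Dbf4 (0.085), Rfc1 (0.30), Rfc2 (0.19) and Rfc3 (0.19) with length and GC trends removed, Gmnn (-0.090), Timeless (-0.12) and Tyms (-0.27) with equal FPKM sums, Gmnn (-0.035), Timeless (-0.31) and Tyms (-0.25) with equal FPKM sums and no control replicate 2, Gins1 (0.075), Gins4 (0.45), Pold2 (0.048), Rfc1 (0.15) and Rfc2 (0.35) with 75th percentile scaling and no control replicate 2, and Gins4 (0.043) and Rfc1 (0.20) with quantile normalization. It also did so for Gins4 (0.23), Pold2 (0.087), Rfc1 (0.15), Rfc2 (0.27) and Lig1 (0.013) with 75th percentile scaling, Gins4 (0.10) and Rfc2 (0.0058) with library weights, Gins4 (0.10) and Rfc2 (0.00097) without control replicate 2, Dbf4 (0.033), Pola2 (0.00084), Prim1 (0.074), Rfc1 (0.36), Rfc2 (0.28) and Rfc3 (0.44) with length and GC trends removed and no control replicate 2, Rfc2 (0.0061) without control replicate 3, and Rfc2 (0.0052) without IGF1 replicate 3. None of these genes was called in the main comparison. When each library was left out in turn, Gins4 ran from -0.13 to 0.10 and Rfc2 from -0.019 to 0.0061.

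Orc1 and Gins3 had the fewest reads, with as few as 114 and 110 in a library. Of the 23 calls made without control replicate 2, 16 are lost when that 1 library is included, and with 3 libraries per group the exact test cannot reach 0.05.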

Other observations

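Mki67, a marker of cycling cells that is no part of the replication machinery, was at 7.55, 21 and 7.83 FPKM across control replicates 1 to 3, against 24.8, 24.9 and 23.3 with IGF1, and control replicate 2 was close to the latter. Its log2 fold change was 1.09 ± 0.38 (limma, adjusted p = 0.069) with all libraries and 1.54 (adjusted p = 1.53e-09) without control replicate 2. It was called higher without that library, where Mcm2 to Mcm7, Rrm1 and Rrm2 were called lower.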
